A study of Mus musculus with 6 samples.

Results

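The cAMP genes described here were 10 genes of the cyclic AMP (cAMP) pathway that T cells use: the receptor genes Ptger4 and Adora2a, the signal regulator Rgs2, the phosphodiesterase genes Pde3b, Pde4a, Pde4b and Pde4d, and the nuclear genes Creb1, Crem and Sik1. They were taken by gene symbol from the bulk RNA-seq count table, in which each symbol was found and which held 32285 rows. All 10 were among the 17307 genes with enough counts to be tested. RNA of splenic CD4+CD25+ Tregs was compared between WT and KO mice, with 3 libraries in each of the 2 groups. Both groups carry the C57BL/6 strain label. The KO mice were ERCre Zfp335fl/fl, in which a Cre made dependent on tamoxifen by an estrogen receptor fusion excises the floxed Zfp335 alleles once the drug is given. The WT mice are called wild-type littermates in the sample labels, which do not mention tamoxifen, and ERCre mice given tamoxifen in the study's methods. By these methods, mice received 3 injections of tamoxifen at 10 mg/mL on days 1, 3 and 5 from 6 weeks of age, and were sacrificed on day 7. ERCre is not restricted to Tregs, so other cells of the KO mice may also have lost the gene. The labels do not say whether the libraries of a group came from separate mice, and the p-values then measure the spread between these libraries only.

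cAMP is a second messenger that restrains T cell activation, and Tregs are known for their high content of it. Receptors such as those for adenosine and prostaglandin E2 act through the stimulatory G protein on adenylyl cyclases, which make cAMP from ATP. cAMP activates protein kinase A, which phosphorylates the transcription factor CREB. CREB binds cAMP response elements (CREs) in the DNA of its target genes. Phosphodiesterases hydrolyze cyclic nucleotides, and some of their genes are themselves induced by CREB, as are the gene of the inhibitory CREM isoform ICER and the gene of the kinase SIK1, which restrains the CREB coactivators of the CRTC family. In bulk RNA, fewer cells of a type and less RNA per cell cannot be told apart.

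The libraries held between 133283969 and 209041812 counts. Levels are in CPM (counts per 1000000 counts of a library, with edgeR's TMM factors applied to its size), and differences as log2 fold changes of KO minus WT. A gene was called higher or lower where edgeR's quasi-likelihood test gave an adjusted p under 0.05 over all genes tested. Zfp335 RNA averaged 120.1 CPM (SD 4.67, n = 3) in WT libraries and 14.8 CPM (SD 0.451, n = 3) in KO libraries, a log2 fold change of -3.02. Defining Treg markers were abundant in all 6 libraries, and some of them moved with the genotype. Of 7 Treg markers, 2 were called higher, 2 lower and 3 not called. Foxp3, the gene of the lineage factor, was at 1154, 1120 and 1134 CPM in WT and at 1062, 1047 and 1046 CPM in KO libraries, a log2 fold change of -0.11 (adjusted p = 0.0163, edgeR). This call was lost without KO1, KO2 or KO3 (adjusted p from 0.0508 to 0.0922, values from -0.12 to -0.11). Il2ra, the gene of CD25, fell by 0.15 on the log2 scale (adjusted p = 0.00658, edgeR), with an adjusted p of 0.0523 and a value of -0.14 without KO2. Ctla4, an inhibitory receptor gene, rose by 0.65 (adjusted p = 9.56e-09, edgeR), and these genes were chosen for mention after their values were seen. The 7 markers summed to between 3575 and 3622 CPM in WT and between 3669 and 3724 CPM in KO libraries, a sum that includes the rise of Ctla4 and the fall of Foxp3 and Il2ra. Their part in the results below was not tested. Markers of some other cells moved with the genotype. Called lower were 5 of 5 B cell, 4 of 5 myeloid and 4 of 4 red cell markers. Of 2 CD8 T cell and 3 NK cell markers 0 were called, and of 3 platelet markers 1 was called higher and 2 were not tested. Of these 22 markers of other cells, 13 were called lower and 1 higher. Their summed level fell from between 141.7 and 147.6 CPM in WT to between 64.3 and 65.9 CPM in KO libraries, with 0 of the 22 at 0 in all 6 libraries. Xist was 0.272 CPM on average in WT and 134.6 CPM in KO libraries, while the Y-linked gene Ddx3y was counted in all 6 libraries, at 98.3, 105.2 and 104.7 CPM in WT and 76.6, 79.4 and 80.0 CPM in KO. Of other Y-linked genes, Eif2s3y was not called (log2 fold change 0.011, adjusted p = 0.9, edgeR). Kdm5d (-0.28, adjusted p = 0.000403, edgeR) and Uty (-0.54, adjusted p = 1.12e-05, edgeR) were called lower. Every KO library was far above every WT library in Xist, so that sex and genotype cannot be told apart here. Each KO library also held Y-linked RNA beside Xist (123.9, 135.2 and 144.7 CPM in KO1 to KO3). Whether these libraries held RNA from mice of both sexes was not tested. The part of other cells and of sex in the results below was not tested.

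Of the 10 cAMP genes, 6 were called higher in KO Tregs (Sik1, Pde4d, Rgs2, Pde4b, Adora2a and Crem), 1 was called lower (Pde4a), and 3 were not called (Creb1, Pde3b and Ptger4). Over all genes tested, 12.0% were called higher and 12.1% lower. The 10 genes were chosen with earlier results of these data known. Their share beside that of all genes is therefore a description and no test. The median log2 fold change was 0.31 for the 10 genes and -0.0042 for all genes tested. Another rule asked for a change of at least 1.5-fold, a p under 0.05 and a looser adjusted p under 0.1. By it Sik1, Pde4d and Rgs2 were the 3 higher genes and 0 were lower, against 2.58% and 4.37% of all genes. The KO libraries lay above all WT libraries for the same 6 genes and below them for Pde4a, while 19.3% and 19.1% of all genes had groups that did not overlap in these directions. Leaving out 1 library changed the number of all genes called higher, from 2082 genes to 1341 without WT2 and 1386 without KO2, and did not change the number of cAMP genes called higher, which was 6 without any library in turn. For a single gene, the smallest p that an exact permutation test allows with 3 against 3 libraries is 0.1, and therefore the tests below come from the edgeR fit across all genes.

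**Figure D1:**
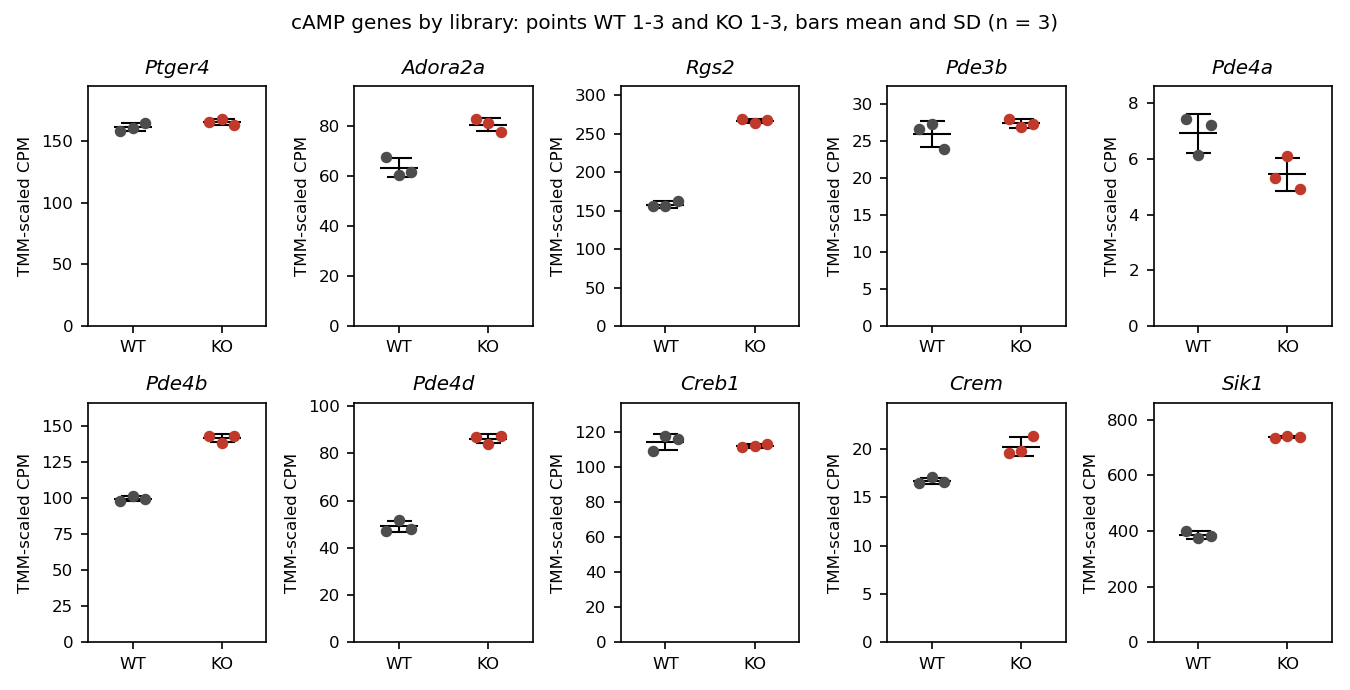
Levels of the 10 cAMP genes in each library. The y axis of each panel is TMM-scaled CPM from 0, points are WT (gray) and KO (red) libraries, and bars are the mean and SD of 3 libraries. Sik1, Rgs2, Pde4b, Pde4d, Adora2a and Crem have all KO points above all WT points, and Pde4a has them below.

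The receptors were examined first. Adora2a encodes the high-affinity adenosine receptor of T cells that couples to the stimulatory G protein and lies on the plus strand of chromosome 10 of GRCm38, from 75316877 to 75334784. Its level was 67.6, 60.4 and 61.6 CPM in WT replicates 1 to 3 and 82.6, 80.9 and 77.4 CPM in KO replicates 1 to 3. Every KO library was above every WT library. The log2 fold change was 0.34 (SE 0.047, adjusted p = 0.000131, edgeR), a 1.27-fold increase. Ptger4 encodes the prostaglandin E2 receptor EP4, which couples to the same G protein, and lies on the minus strand of chromosome 15 from 5206661 to 5244187. Its level was 158.7, 160.4 and 165.0 CPM in WT and 165.5, 168.0 and 163.0 CPM in KO libraries, and the groups overlapped. Its log2 fold change was 0.037 with a 95% confidence interval from -0.034 to 0.11 (adjusted p = 0.469, edgeR), so that a rise of the size seen for Adora2a lay outside the interval. Of the exon bases of Ptger4, 15.3% lie over the pseudogene Gm15937 and 1.23% over Ttc33, both on the opposite strand, and reads there cannot be told apart unless strand was used in counting, which is not given in the sources used here.

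Rgs2 encodes a regulator of G protein signaling that speeds the shutdown of Gq and has been found to restrain some adenylyl cyclases. It lies on the minus strand of chromosome 1 from 143999338 to 144004161. WT libraries held 155.7, 155.7 and 162.6 CPM of Rgs2, and KO libraries 269.2, 264.4 and 267.4 CPM. The groups were far apart relative to their spread (the SD of the KO libraries was 2.42 CPM, n = 3). The log2 fold change was 0.76 (SE 0.033, adjusted p = 2.99e-09, edgeR), or 1.69-fold, and stayed between 0.73 and 0.78 over 16 alternative fits.

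The 4 phosphodiesterase genes did not move together. Pde4d and Pde4b, which encode cAMP-specific phosphodiesterases and are CREB targets themselves, rose in KO Tregs. Pde4a, a paralog with the same substrate, was called lower at a far lower level, and Pde3b, which encodes a phosphodiesterase inhibited by cGMP, was not called.

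Pde4d, on the plus strand of chromosome 13 from 108449948 to 109953461, was at 47.4, 51.8 and 48.2 CPM in WT and at 87.0, 84.0 and 87.6 CPM in KO libraries. The lowest KO library was well above the highest WT library. Its log2 fold change was 0.81 (SE 0.042, 95% confidence interval 0.72 to 0.90, adjusted p = 2.2e-08, edgeR), or 1.75-fold. Pde4b, on the plus strand of chromosome 4 from 102087543 to 102607259, was at 98.0, 101.5 and 99.1 CPM in WT and at 142.7, 138.3 and 143.2 CPM in KO libraries. These groups did not overlap either. The log2 fold change of Pde4b was 0.51 (SE 0.034, 95% confidence interval 0.43 to 0.58, adjusted p = 2.01e-07, edgeR), or 1.42-fold, so that the intervals of Pde4d and Pde4b did not meet.

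Pde4a, on the plus strand of chromosome 9 from 21165714 to 21213248, was at 7.43, 6.13 and 7.21 CPM in WT and at 5.32, 6.10 and 4.92 CPM in KO libraries. The lowest WT library (WT2) was barely above the highest KO library (KO2). The log2 fold change was -0.34 (SE 0.10, adjusted p = 0.0302, edgeR). The call was lost without WT1 (-0.27, adjusted p = 0.08), without WT3 (-0.31, adjusted p = 0.0634), without KO1 (-0.32, adjusted p = 0.0981) and without KO3 (-0.27, adjusted p = 0.131), while the direction stayed. Pde3b, on the plus strand of chromosome 7 from 114415281 to 114539251, was at 26.6, 27.3 and 24.0 CPM in WT and at 28.0, 26.9 and 27.3 CPM in KO libraries. The groups overlapped, and the log2 fold change was 0.073 with a 95% confidence interval from -0.043 to 0.19 (adjusted p = 0.373, edgeR).

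Of the nuclear genes, Sik1 had the lowest p of the 10. Sik1 encodes salt-inducible kinase 1 and lies on the minus strand of chromosome 17 from 31844250 to 31855804. It was at 401.3, 375.5 and 382.9 CPM in WT and at 734.2, 743.4 and 737.4 CPM in KO libraries. Its KO libraries were close to each other (SD 4.67 CPM, n = 3) and lay far above the WT libraries (SD 13.3 CPM, n = 3). The log2 fold change was 0.93 (SE 0.033, adjusted p = 6.08e-10, edgeR), or 1.91-fold, and it ranked 18 by p among the 17307 genes. By the size of the change in either direction it ranked 1329.

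Crem, which encodes the cAMP response element modulator, was at 16.5, 17.1 and 16.6 CPM in WT and at 19.6, 19.7 and 21.4 CPM in KO libraries. All KO libraries were above all WT libraries, by less than for Sik1. The log2 fold change was 0.28 (SE 0.055, adjusted p = 0.00254, edgeR), or 1.21-fold. The count of Crem sums its activator and repressor isoforms, including ICER, and the isoforms were not separated. Crem is on the minus strand of chromosome 18 from 3266048 to 3337748, and 8.01% of its exon bases lie over Gm6225 on the opposite strand, which was at 2.04 CPM in WT and 2.61 CPM in KO libraries. Creb1, the gene of CREB itself, is on the plus strand of chromosome 1 from 64532645 to 64604548. It was at 109.4, 117.9 and 116.0 CPM in WT and at 111.2, 112.0 and 113.3 CPM in KO libraries. The groups overlapped, and the log2 fold change was -0.029 with a 95% confidence interval from -0.11 to 0.051 (adjusted p = 0.633, edgeR).

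**Figure D2:**
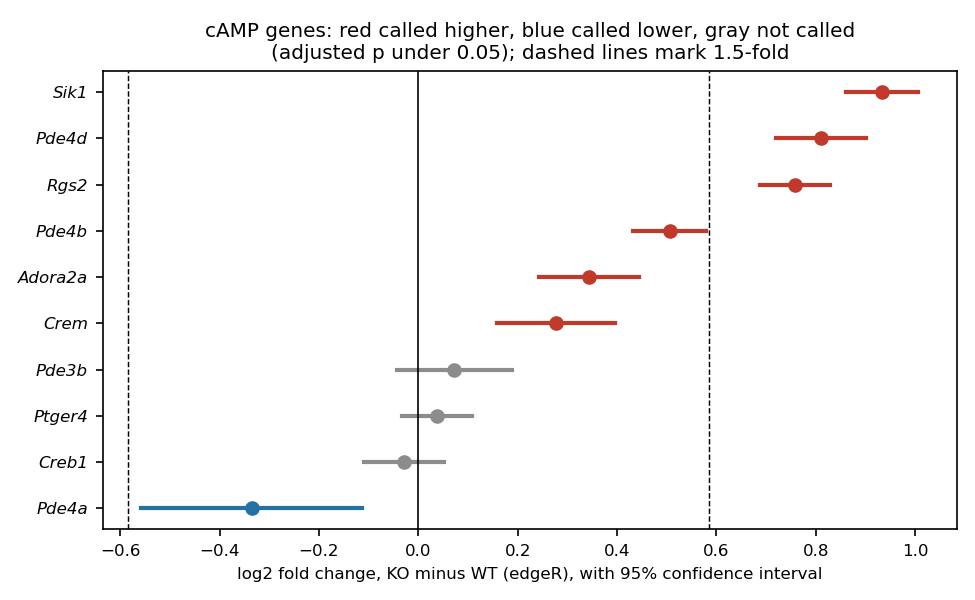
Log2 fold change of each cAMP gene, KO minus WT, on the x axis. Points are edgeR estimates, lines 95% confidence intervals, colors the calls at an adjusted p under 0.05, and dashed lines a 1.5-fold change. Sik1 (0.93), Pde4d (0.81) and Rgs2 (0.76) lie beyond the upper dashed line, Pde4b (0.51) just inside it, and the intervals of Pde3b, Ptger4 and Creb1 cross 0.

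To set genes of unequal length side by side, levels were divided by the length of each gene's merged exons. On this scale of CPM per kb the order in WT was Sik1 (75.3), Rgs2 (43.6), Ptger4 (24.3), Adora2a (20.6), Pde4b (9.43), Creb1 (8.33), Pde4d (4.09), Pde3b (2.85), Crem (2.83) and Pde4a (0.904). Each gene was above the next in all 3 WT libraries except Pde3b and Crem, whose libraries overlapped. In KO the order was Sik1 (143.8), Rgs2 (73.6), Adora2a (26.2), Ptger4 (24.9), Pde4b (13.4), Creb1 (8.16), Pde4d (7.18), Crem (3.43), Pde3b (3.01) and Pde4a (0.712). Here Adora2a stood before Ptger4, with libraries that overlapped, and Crem stood before Pde3b, with libraries that did not. Transcripts that use only some of the exons would be understated on this scale.

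The other phosphodiesterases gave the 4 genes their context. Of 21 phosphodiesterase genes listed, 18 were tested, and 6 were called higher (33.3%), 1 lower and 11 not called, with a median log2 fold change of 0.059. Without the 4 genes above, 4 of 14 were called higher (28.6%) and 0 lower by edgeR, against 12.0% and 12.1% of all genes tested. Among these, Pde1c was near 0 (0.134 CPM in WT and 0.364 CPM in KO libraries on average, adjusted p = 0.0193, edgeR). Pde8a was close to the threshold (adjusted p = 0.0473, edgeR), and its groups overlapped. Pde1c and Pde8a were named after their values were seen. Pde2a, whose enzyme is stimulated by cGMP, had the highest level, at 141.1 CPM on average in WT and 154.7 CPM in KO libraries. Its log2 fold change was 0.13 (adjusted p = 0.0105, edgeR), and the call was lost without KO1 (adjusted p = 0.0578) or KO2 (adjusted p = 0.0534), at 0.13 each. Pde7a, the gene of another cAMP-specific enzyme, rose from 48.0 to 54.3 CPM on average, a log2 fold change of 0.18 (adjusted p = 0.00511, edgeR).

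Summed per kb over the 18 genes, phosphodiesterase RNA was 64.5, 67.3 and 65.6 CPM per kb in WT and 77.2, 76.0 and 76.6 CPM per kb in KO libraries. All KO sums were above all WT sums. The sum holds Pde4b (9.43 in WT and 13.4 in KO on average) and Pde4d (4.09 and 7.18). The sum and the shares below therefore restate in part the rise of these genes, and no sum without them was made. The genes Pde4a to Pde4d made up 23.3% ± 0.164 of the sum in WT (SD, n = 3) and 29.0% ± 0.341 in KO (SD, n = 3). The share of Pde4b was 14.3% in WT and 17.5% in KO, and that of Pde4d was 6.22% and 9.37%. The share of Pde2a was 34.9% in WT and 32.8% in KO libraries, although its own level was not lower in KO.

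**Figure D3:**
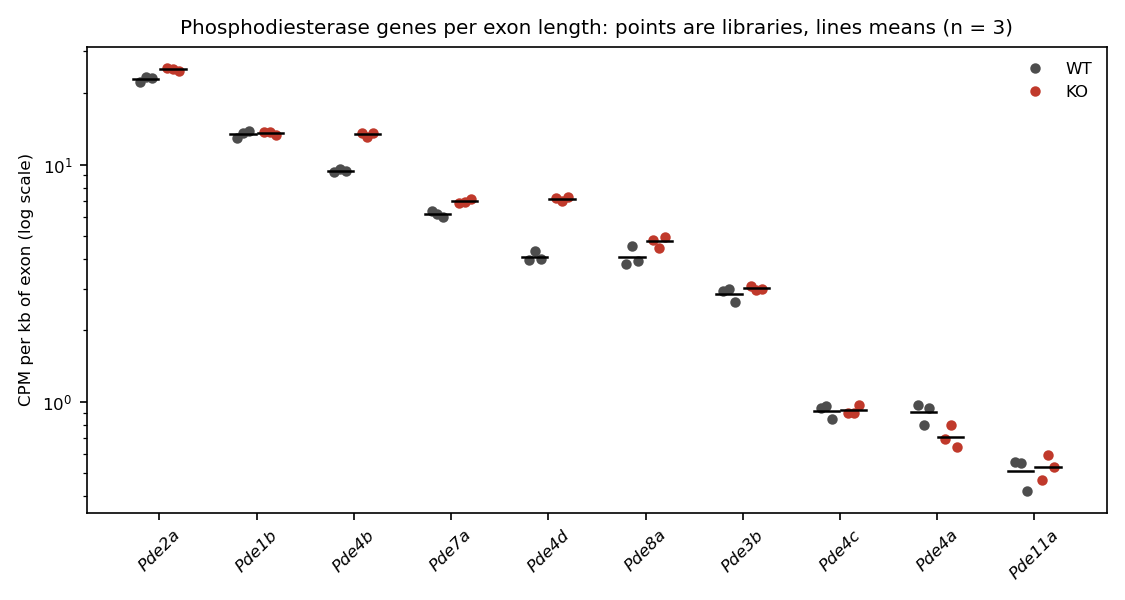
Levels of the 10 phosphodiesterase genes with at least 0.5 CPM per kb on average. The y axis is CPM per kb of merged exon on a log scale, points are WT (gray) and KO (red) libraries, and lines are means of 3 libraries. Pde4d (4.09 in WT, 7.18 in KO) and Pde4b (9.43 and 13.4) have their KO points well above their WT points, and those of Pde3b overlap.

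The pathway around these genes was described with 9 lists of 138 genes in all, of which 115 were tested. Counting the 10 cAMP genes, 32 were called higher, 16 lower and 67 not called, so that 41.7% were called, against 24.1% of all genes tested. Without the 10, 39.0% of 105 genes were called, 26 higher and 15 lower, with a median log2 fold change of -0.016. The number of pathway genes called lower was 9 without WT2 and 10 without KO1 or KO3. The lists moved in different ways, and therefore they are given by role. They, too, were chosen with earlier results of these data known, so that their shares are descriptions.

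Among 21 receptor genes whose products raise cAMP, 14 were tested, 3 called higher, 3 lower and 8 not called. Together 42.9% were called, against 24.1% of all genes tested. Ptger2, the gene of EP2, the other prostaglandin E2 receptor that raises cAMP, had the lowest p of the list. It rose from 31.1 to 40.6 CPM on average, with a log2 fold change of 0.38 (adjusted p = 5.3e-05, edgeR), close to the 0.34 of Adora2a. Ptgir, the prostacyclin receptor gene, fell by 0.37 on the log2 scale (adjusted p = 0.00518, edgeR). Gpr174, a receptor for lysophosphatidylserine and the most abundant of the list after Ptger4 among the genes tested, was at 79.1 CPM in WT and 80.0 CPM in KO libraries and was not called (adjusted p = 0.875, edgeR).

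Of 12 tested genes of G proteins and adenylyl cyclases, 2 were called higher, 1 lower and 9 not called. The share called, 25%, was near the 24.1% of all genes tested. The 2 higher genes were the cyclase genes Adcy3 (0.17, adjusted p = 0.0152) and Adcy6 (0.23, adjusted p = 0.0299), and the lower gene was Gnai2, which encodes an inhibitory G protein subunit (-0.096, adjusted p = 0.0496, edgeR). These calls were near the threshold. Adcy3 lost its call without WT2 (adjusted p = 0.0753), KO1 (adjusted p = 0.0737) or KO2 (adjusted p = 0.0645), with values of 0.15 to 0.17. Adcy6 lost it without WT2 or any KO library, with an adjusted p from 0.0536 to 0.107 and values of 0.20 to 0.24, and also with upper-quartile factors (adjusted p = 0.0577) and with library size only (adjusted p = 0.051). Gnai2 lost it without any library except WT1, with an adjusted p from 0.0731 to 0.183 and values from -0.11 to -0.074, and also with RLE factors (adjusted p = 0.052), with the legacy method of edgeR (adjusted p = 0.0622) and with the replicate block (adjusted p = 0.0595).

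Among 12 genes of protein kinase A subunits and their inhibitors, of exchange factors activated by cAMP and of a cAMP-binding membrane protein, 1 was called higher, 3 lower and 8 not called. The share called was 33.3%, against 24.1% of all genes tested. The higher gene was Rapgef3, which encodes the cAMP-activated exchange factor EPAC1. It was at 3.57 CPM in WT and 7.68 CPM in KO libraries on average, with a log2 fold change of 1.11 (adjusted p = 2.02e-06, edgeR), larger than that of any of the 10 cAMP genes. Popdc2, the gene of that membrane protein, fell by 0.90 on the log2 scale at a low level (1.64 CPM in WT, adjusted p = 0.00645, edgeR), with an adjusted p of 0.0516 and a value of -0.76 without WT2. Another gene called lower, Pkig, encodes an inhibitor of protein kinase A and was named after its values were seen. It fell by 0.47 (adjusted p = 0.0095, edgeR), with an adjusted p of 0.0508 and a value of -0.39 without KO3. Prkar1a, the most abundant gene of the list, encodes a regulatory subunit of protein kinase A and had a log2 fold change of 0.078 (adjusted p = 0.0783, edgeR, and 0.0221 by DESeq2). Among 11 tested genes of A-kinase anchoring proteins, which tether protein kinase A, only Akap1 was called (0.29, adjusted p = 0.00599, edgeR). That is 9.09%, against 24.1% of all genes tested. The number called lower in this list was 0, but 1 with upper-quartile factors, library size only, a filter of 1 CPM or DESeq2. It was also 1 with the replicate block, with counts divided by 4, without WT1 and without KO3. The most abundant of the 11 genes, Akap13, was at 968.4 CPM in WT and 969.1 CPM in KO libraries.

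Of 11 genes of the CREB family, its coactivators and the SIK kinases, 5 were called higher, 0 lower and 6 not called by edgeR. Sik1 and Crem were among the 5, and 45.5% of the list was called, against 24.1% of all genes tested. The coactivator genes Crtc2 (0.20, adjusted p = 0.00338) and Crebbp (0.15, adjusted p = 0.00714, edgeR) were the other genes of this list with the lowest p. Ep300, the gene of the coactivator related to CBP, was not called (-0.022, adjusted p = 0.711, edgeR).

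Known CREB targets made up the list with the highest share of calls among the 9 (88.2%, against 24.1% of all genes tested). As the list was chosen with earlier results of these data known, this share is a description and no test. Of 18 listed, 17 were tested, 14 were called higher, 1 lower and 2 not called, with a median log2 fold change of 0.76. Without Sik1, Rgs2, Pde4b, Pde4d and Crem, which belong to it, 9 of 12 were called higher and 1 lower, with a median of 0.73. Per1, a clock gene, rose from 259.0 to 534.7 CPM on average, a log2 fold change of 1.05 (adjusted p = 2.21e-09, edgeR). Nr4a3, the gene of an orphan nuclear receptor that is also induced by T cell receptor signaling, rose from 92.8 to 172.3 CPM, a log2 fold change of 0.89 (adjusted p = 8.51e-10, edgeR). Junb, which encodes a subunit of AP-1 and was the most abundant gene of the list, rose from 2647 to 3823 CPM, a log2 fold change of 0.53 (adjusted p = 1.01e-06, edgeR).

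The exceptions in this list were chosen for mention after their values were seen. Fos, which encodes another AP-1 subunit, was the gene called lower, from 1040 to 895.2 CPM on average, a log2 fold change of -0.22 (adjusted p = 0.000211, edgeR). The genes not called were Egr1 (-0.065, adjusted p = 0.169, edgeR) and Ppargc1a, which was near 0 in both groups (0.050 CPM in WT and 0.078 CPM in KO). Egr1 passed the threshold as lower without WT1 (-0.083, adjusted p = 0.0399, edgeR) and with library size only (-0.096, adjusted p = 0.045, edgeR). As background, many genes of this list, such as Fos, Egr1 and the Nr4a genes, also respond to T cell receptor signaling.

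**Figure D4:**
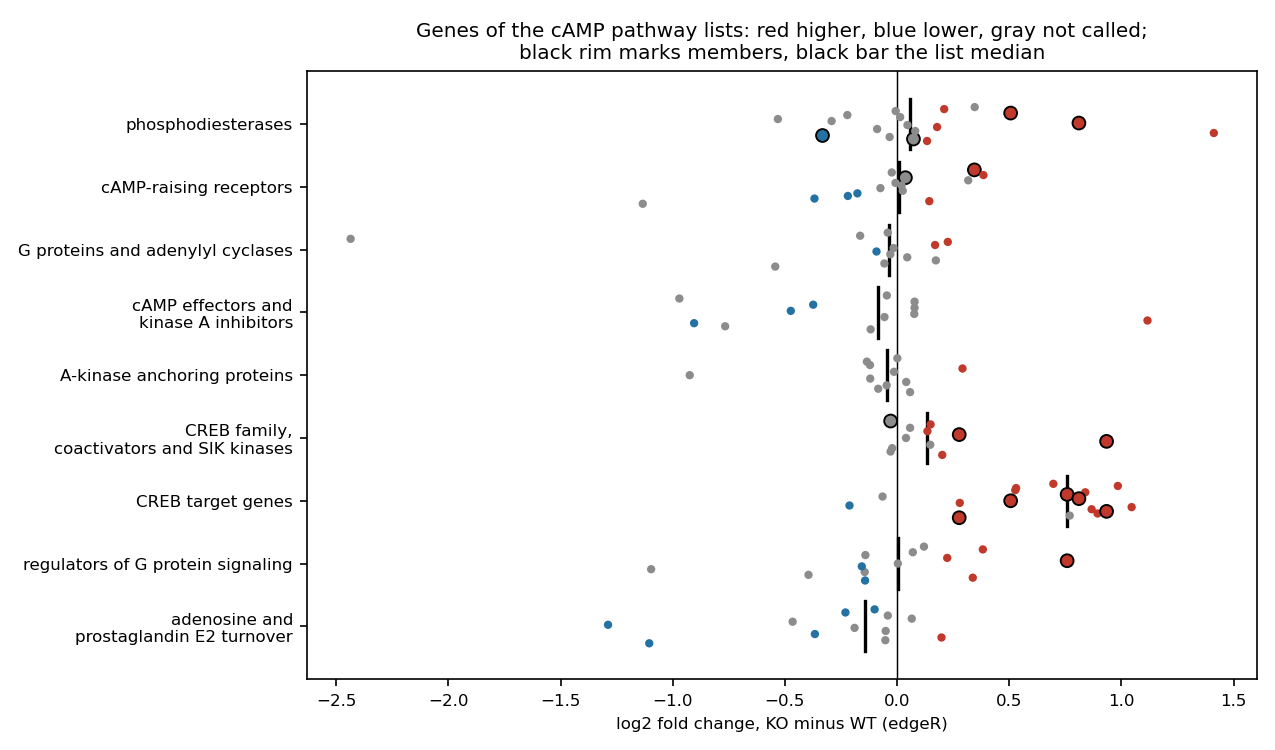
Log2 fold changes (x axis, KO minus WT, edgeR) of the tested genes of the 9 pathway lists, 1 list per row. Red points were called higher, blue points lower and gray points not called, black rims mark the 10 cAMP genes, and black bars the list medians. The CREB target list lies mostly right of 0 (median 0.76), and the other medians lie between -0.15 and 0.14.

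RefSeq promoter windows (build GRCm38.p6) were searched to show CRE sequences around the starts of these genes. Each window held 250 bases before and 50 bases after the start. The motifs were the full CRE TGACGTCA and the short motif TGACG, which appears as TGACG or CGTCA when both strands are read. A full CRE contains both short forms, which overlap. Windows were at hand for 6 of the 10 cAMP genes (Creb1, Pde4a, Pde4b, Pde4d, Ptger4 and Rgs2). The short motif was in a window of Rgs2, Pde4b and Pde4a, and the full CRE in 0 of the 6. Pde4b had 4 windows and Pde4a 3, which gives a gene more places for a match. By window, the short motif was in 27.3% of the 11 windows of the cAMP genes and in 28.5% of the windows of tested genes. Of the 13 other listed CREB targets, 11 had windows, 11 of these held the short motif, and 2 held the full CRE, Areg and Dusp1. These genes were listed as known CREB targets, so that this count is a description and no test. It is a count by gene, and Bdnf held the short motif in 1 of 7 windows. The share of all 27025 genes with a window that held the motif in at least 1 window was 23.0% for the short motif and 2.03% for the full CRE, and it was 32.7% and 3.30% for the 12380 of them that were tested. The 250 bases before the start are printed 5′ to 3′ on the gene's strand, in lower case with the motifs in capitals, for the cAMP genes that rose and held the motif and for the targets with a full CRE.
Rgs2: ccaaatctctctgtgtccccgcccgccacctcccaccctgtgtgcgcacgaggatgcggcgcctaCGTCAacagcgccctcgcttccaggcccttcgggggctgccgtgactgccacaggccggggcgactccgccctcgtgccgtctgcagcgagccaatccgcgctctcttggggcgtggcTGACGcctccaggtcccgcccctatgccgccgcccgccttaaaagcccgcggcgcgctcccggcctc
Pde4b: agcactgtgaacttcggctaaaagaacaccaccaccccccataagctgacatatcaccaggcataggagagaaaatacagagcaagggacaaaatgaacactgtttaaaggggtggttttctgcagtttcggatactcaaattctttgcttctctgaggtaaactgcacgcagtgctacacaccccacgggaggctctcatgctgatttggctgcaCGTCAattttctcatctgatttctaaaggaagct
Areg: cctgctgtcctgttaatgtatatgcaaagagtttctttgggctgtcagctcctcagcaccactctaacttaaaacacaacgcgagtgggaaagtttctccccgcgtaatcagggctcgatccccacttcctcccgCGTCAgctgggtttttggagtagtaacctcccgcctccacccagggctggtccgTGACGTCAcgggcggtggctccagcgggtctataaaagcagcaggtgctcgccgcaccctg
Dusp1: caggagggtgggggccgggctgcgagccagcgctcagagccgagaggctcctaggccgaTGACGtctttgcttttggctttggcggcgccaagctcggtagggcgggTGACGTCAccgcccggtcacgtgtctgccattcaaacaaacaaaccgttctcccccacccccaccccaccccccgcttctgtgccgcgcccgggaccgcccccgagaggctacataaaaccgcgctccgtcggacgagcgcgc

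These stretches are chr1:144004150-144004399 on the minus strand for Rgs2, chr4:102421305-102421554 on the plus strand for the Pde4b window that held the motif (of 4 windows), chr5:91139349-91139598 on the plus strand for Areg and chr17:26508473-26508722 on the minus strand for Dusp1. In Rgs2 the motifs begin 185 and 67 bases before the start, and in Pde4b 34 bases before it. The full CRE begins 61 bases before the start in Areg and 143 bases before it in Dusp1, and each of these promoters holds a further short motif, at 115 and 191 bases. Areg, the gene of the growth factor amphiregulin, rose from 8.38 to 14.99 CPM on average (log2 fold change 0.84, adjusted p = 1.06e-06, edgeR). Dusp1, the gene of a phosphatase of MAP kinases, rose from 1005 to 1220 CPM (log2 fold change 0.28, adjusted p = 4.09e-05, edgeR). Areg and Dusp1 were chosen after their values were seen. A match in letters does not show binding, and the absence of a match says only that these letters are not in the window.

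The regulators of G protein signaling gave Rgs2 its own family for comparison. Of 19 genes listed, 13 were tested, 4 called higher, 2 lower and 7 not called. That is 46.2% called, against 24.1% of all genes tested. The number called lower was 1 without WT1, WT2 or any KO library. Rgs16, which acts on Gi and Gq proteins, rose from 144.2 to 187.9 CPM on average (0.38, adjusted p = 4.77e-06, edgeR), and Rgs12 rose from 9.79 to 12.4 CPM (0.34, adjusted p = 0.00391, edgeR), both by less than the 0.76 of Rgs2. Rgs1 had a log2 fold change of 0.12 (adjusted p = 0.0841, edgeR), and of 0.18 without WT3 (adjusted p = 0.00269, edgeR).

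The last list held genes that make, move or remove adenosine and prostaglandin E2, the ligands of these receptors. Its count mixes these roles and gives no direction for the supply of the ligands. Of 12 genes tested, 1 was called higher, 5 lower and 6 not called, with a median log2 fold change of -0.15. Together 50% were called, against 24.1% of all genes tested. Ptges2, which encodes a prostaglandin E synthase, fell by 1.10 on the log2 scale, from 14.1 to 6.57 CPM on average (adjusted p = 2.33e-07, edgeR). Adk, the gene of adenosine kinase, which removes adenosine inside cells, fell by 0.37 (adjusted p = 0.000841, edgeR). Nt5e, the gene of CD73, which makes extracellular adenosine and is a known surface enzyme of Tregs, was the most abundant of the list and fell by 0.10 (adjusted p = 0.045, edgeR). That call was lost without any library except WT1, with an adjusted p from 0.0841 to 0.189 and values from -0.11 to -0.085, and also with no filter on low counts (adjusted p = 0.0616).

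The genes whose log2 CPM followed that of Sik1 most closely over the 6 libraries were Mef2d, a transcription factor gene (Pearson r = 0.99952), Dusp10, a MAP kinase phosphatase gene (r = 0.99946), and Vps37b (r = 0.99928), among 9089 genes of sufficient level. With 2 groups in 6 libraries, any gene with a clear group difference and little spread has a high r, so that this is a description of the levels. Mef2d rose by 0.34, Vps37b by 1.32 and Dusp10 by 1.48 on the log2 scale, against 0.93 for Sik1.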

How the data were processed

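Bulk RNA-seq of 6 Treg libraries (WT1 to WT3, KO1 to KO3) was grouped by the sample labels. The authors deposited a table of raw counts with rows named by gene symbol, of which 40 repeat a symbol. Such rows were kept apart, and the row of the highest total count kept the symbol. The submitters' processing notes name HISAT2, DESeq2 and mm10; the counter, the annotation and the strand setting are not given in the sources used here. Depth was 133283969 to 209041812 counts per library, so counting error is small for all 10 genes. Counts were TMM-scaled (factors 0.987 to 1.014), filtered with filterByExpr and tested in R 4.3.3 with edgeR 4.0.16 (quasi-likelihood, robust, Benjamini-Hochberg over 17307 genes). The log2 CPM used a prior count of 2. The fit was tested on simulated data.

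The members and lists were chosen with earlier results of these data known. Named genes were the 10 members and, per list, the 2 called genes of lowest p and the gene of highest mean CPM that are not members, plus the 3 genes most like the member of lowest p. Positions and exon lengths come from GENCODE vM21 (GRCm38) and promoters from RefSeq. Deviations of same-numbered WT and KO libraries correlated at 0.052, -0.0099 and -0.027, so the numbers were not used as pairs. Alternatives were other scalings and filters, DESeq2 1.42.0, limma-voom (limma 3.58.1), a replicate block, counts divided by 4, and leaving out each library. No column was left out.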

Additional observations from a re-analysis of the deposited data

How the results depend on the processing

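Over 16 alternative fits, all calls of the cAMP genes held except that of Pde4a, which kept its direction (-0.43 to -0.27) and had an adjusted p of 0.0167 to 0.131 (edgeR, DESeq2 and limma-voom). Without 1 library in turn its log2 fold change ranged from -0.43 to -0.27, and the number of cAMP genes called lower was 0 to 1. Under the 1.5-fold rule, with its adjusted p under 0.1, 3 cAMP genes were called higher and 0 lower. By the same rule pathway genes numbered 11 higher and 4 lower, and all genes 446 higher and 757 lower. Without 1 library in turn, pathway genes called lower numbered 9 to 15, and all genes called higher 1341 to 2495. With the replicate number as a block, 4227 genes were called, 3971 of them shared with the fit without it, and Pde4a had a log2 fold change of -0.33 (adjusted p = 0.0457, edgeR); no call of the 10 cAMP genes changed with this replicate block, and among the genes named here the calls of Gnai2 (lost) and Rgs1 (gained) did. Gpr174 turned to -0.011 with library size only and ranged from -0.067 to 0.093 without 1 library. Akap13 turned to -0.030 with library size only, -0.013 with upper-quartile factors, -0.0039 with a filter of 1 CPM and -0.0016 with counts divided by 4, and ranged from -0.015 to 0.018 without 1 library. Scaling by library size only moved the median of all genes by -0.031. The lowest count of a cAMP gene in a library was 948, for Pde4a. Read duplicates, strand and isoforms could not be examined in these counts.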

Other observations

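The short CRE motif TGACG was also counted in the promoters of all genes by call, as values without a test. It was in a RefSeq window of 42.8% of the 1644 genes called higher that had a window, 27.5% of the 1566 called lower and 31.7% of the 9170 not called. The full CRE was in 5.11%, 2.49% and 3.12% of these genes. By the 1.5-fold rule, with its looser adjusted p under 0.1, the short motif was in 32.1% of the 312 higher and 20.0% of the 475 lower. The motif holds a CpG and the base composition of the windows was not matched.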
